A study of Mus musculus with 24 samples.

Results

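The comparison described here is the classical, or M1, activation of wild-type mouse macrophages: the 4 arrays labelled WT M1 against the 4 arrays labelled WT M0, 8 of the 24 arrays of the series, chosen by their titles and not by any measured value. Macrophages were grown from mouse bone marrow for 6 days in 20 ng/ml M-CSF, the growth factor that drives monocytes and macrophages. WT M1 cultures then received 5 ng/ml lipopolysaccharide (LPS) and 10 ng/ml interferon-gamma for 24 h, and WT M0 cultures stayed untreated for the same 24 h. Both groups carry floxed Slc2a1 alleles (Slc2a1 fl/fl), the gene of the glucose transporter GLUT1, and served as controls without the knockout. The remaining arrays are WT M2 cultures (10 ng/ml interleukin-4 for 24 h) and M1, M0 and M2 cultures labelled KO, from mice in which LysMCre, a recombinase driven by the lysozyme 2 gene of myeloid cells, acts on the same floxed alleles. RNA was hybridised to Agilent one-colour arrays, and every group has 4 biological replicates. The p-values measure the spread between these cultures, since no label used here tells the age of the mice or whether a culture was a single animal or a pool.

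LPS is sensed by Toll-like receptor 4 (Tlr4) with its partners Ly96 and Cd14, and signals through Myd88 and Ticam1 to NF-kappaB and to the interferon regulatory factors. Interferon-gamma acts through its receptor and the kinases Jak1 and Jak2 on STAT transcription factors, which turn on Irf1 and a large set of defence genes. Macrophages that receive both signals are known for nitric oxide, inflammatory cytokines, antigen presentation, a shift towards glycolysis and an arrest of proliferation.

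Levels are given as the log2 of the background-subtracted intensity minus the 75th percentile of the array, so 0 is the 75th percentile and 1 unit is a 2-fold difference. The brightest probe stands for a gene that has several, and levels of different genes come from different probes and are not set against each other. A difference is WT M1 minus WT M0 with its standard error, from a limma fit to all 24 arrays, and a gene was called higher or lower at a Benjamini-Hochberg adjusted p below 0.05 over all genes. The 75th percentile was 2728 to 3618 intensity units on the WT M1 arrays and 3208 to 3567 on the WT M0 arrays, and 56.1 to 63% and 60.4 to 65.4% of probes were well above background. No gene spot was saturated.

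One pair of arrays stood apart. WT M1 replicate 3 and WT M0 replicate 2 had no signal above background for Uty, Eif2s3y and Ddx3y, genes of the Y chromosome, which the other 6 arrays all had. Kdm5d, also of the Y chromosome, was above background on all 8 arrays. Xist, the RNA that silences an X chromosome, had levels of -0.74 in WT M1 replicate 3 and -1.42 in WT M0 replicate 2, against at most -4.32 on the other 6 arrays. Among those 6, Xist was above background in WT M1 replicate 4 (-5.38) and WT M0 replicate 4 (-4.32), which had the Y-linked signals as well. WT M0 replicate 2 had higher interferon-induced genes and lower cell division genes than the other WT M0 arrays, and WT M1 replicate 3 had lower levels of many LPS-induced cytokines than the other WT M1 arrays. The 8 arrays were put into 4 sets, with 1 array of each group in every set. The pair without Uty signal is 1 set, although WT M1 replicate 3 was on slide 2 and WT M0 replicate 2 on slide 1. The remaining arrays were put into sets by slide. Values by set are given for some genes and lists only. The groups were spread over 3 slides, each with arrays of both: of the called genes measured on every slide, 99.4% had the same sign within all 3, beside 70.3% of all genes, and with slide as a block 12541 genes were called. The calls were made on these same arrays, so the share among called genes is high in part by that choice. Without the set that lacks Uty signal, 13427 genes were called, against 12315 with it. The macrophage markers Csf1r, Adgre1, Itgam, Cd68, Spi1, Lyz2, Fcgr1 and Mertk were above background on all 8 arrays.

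M1 activation changed 48.0% of the 25645 genes tested. It raised 6415 genes (25.0%) and lowered 5900 (23.0%), and the median difference over all genes was 0.01. By at least 2-fold, 2915 genes rose (11.4%) and 3290 fell (12.8%), and by at least 64-fold, 100 rose and 58 fell. In 11533 genes (45.0%) the 4 WT M1 arrays did not overlap the 4 WT M0 arrays. Of the 12187 called genes with a value in every set, 95.8% had the same sign in all 4 sets, beside 61.9% over all genes. That share too is raised by calling genes on the same arrays. Rises made up 52.1% of the calls, and 41.1% when the arrays were scaled on probes detected on all 24 arrays, a scaling that moved the median of all genes to -0.14.

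**Figure D1:**
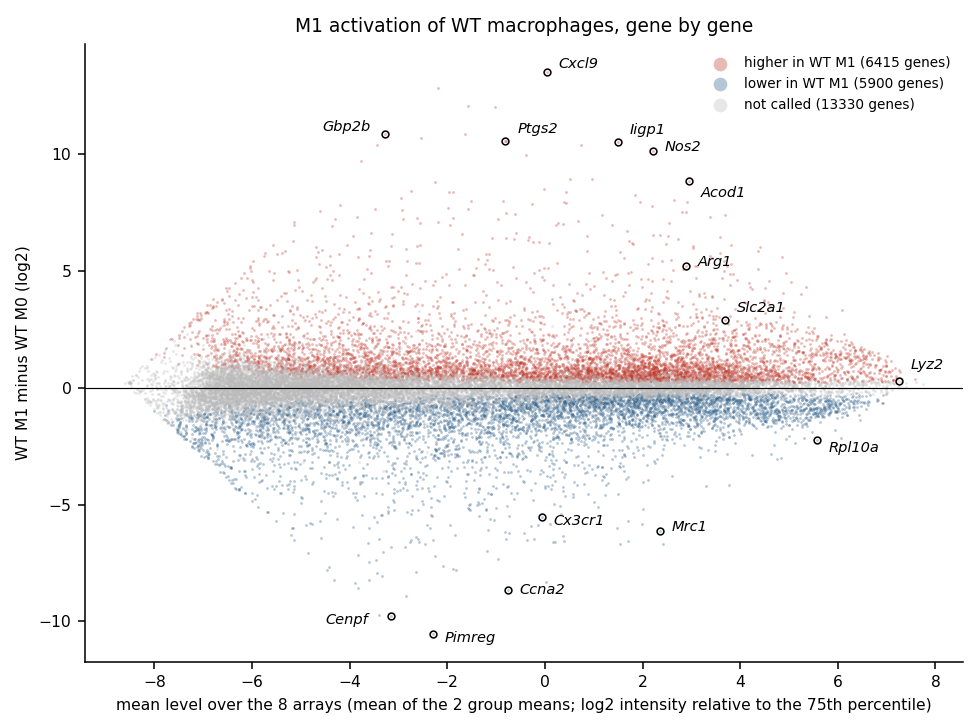
Difference of each of the 25645 genes (vertical axis, WT M1 minus WT M0, log2) against its mean level (horizontal axis, log2 intensity relative to the array 75th percentile), with genes called higher in red, lower in blue and not called in grey. The rises reach 13.51 at Cxcl9 and the falls -10.53 at Pimreg, while Lyz2 lies near 0.

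Of the 15 largest rises without overlap between the groups, several belong to the textbook interferon-gamma programme. Cxcl9, a chemokine that attracts T cells, had levels of 6.83, 6.6, 6.79 and 6.99 in the WT M1 arrays, against -8.11, -2.31, -8.96 and -7.46 in the WT M0 arrays (log2 difference 13.51 ± 1.28, limma adjusted p = 3.04e-08). The WT M1 arrays lay close together, and the spread was in WT M0, where 1 of 4 arrays, replicate 2, was above background. With the arrays below background raised to the lowest detected signal, the rise was at least 6632-fold. The Cxcl9 probe maps to chr5:92752191-92752250 (mm9).

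Nos2, the inducible nitric oxide synthase, had levels of 7.5, 7.18, 7.03 and 7.44 in the WT M1 arrays, against -2.57, -3.17, -3.01 and -2.67 in the WT M0 arrays (log2 difference 10.14 ± 0.46, limma adjusted p = 1.35e-12), a 1130-fold rise. Its probe lies at chr11:78773567-78773626 (mm9), and its difference was 10.07 to 10.20 in the 4 sets, with the set without Uty signal at the upper end. Acod1, which makes the antimicrobial metabolite itaconate, had levels of 7.44, 7.17, 7.32 and 7.54 in the WT M1 arrays, against -0.25, -1.98, -2.11 and -1.56 in the WT M0 arrays (log2 difference 8.85 ± 0.70, limma adjusted p = 2.66e-09). In both genes every WT M1 array lay far above every WT M0 array.

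Ptgs2, the inducible cyclooxygenase of prostaglandin synthesis, had levels of 5.64, 5.03, 2.42 and 4.78 in the WT M1 arrays, against -3.66, -8.46, -5.90 and -6.31 in the WT M0 arrays (log2 difference 10.55 ± 0.96, limma adjusted p = 1.76e-08). Gbp2b, a guanylate-binding protein, had levels of 1.39, 2.69, 3.25 and 1.22 in the WT M1 arrays, against -8.76, -8.43, -8.96 and -8.65 in the WT M0 arrays, and no WT M0 array was above background, so the rise was at least 547-fold (limma adjusted p = 5.24e-09). The same held for Ubd, a ubiquitin-like modifier, at least 261-fold higher (adjusted p = 1.62e-11). The others were Serpina3f (10.70 ± 0.66) and Serpina3g (10.36 ± 0.79), serine protease inhibitors, Iigp1 (10.51 ± 1.05), an immunity-related GTPase, Gbp6 (9.95 ± 1.23), Ifit1bl1 (8.95 ± 0.84), Upp1 (8.48 ± 0.56), uridine phosphorylase, Tarm1 (8.44 ± 0.66), an immunoglobulin-like receptor of myeloid cells, Slc6a19 (8.82 ± 0.42), a neutral amino acid transporter, and Clic5 (10.54 ± 0.52). A second Clic5 probe had a difference of 0.30, so the 2 probes of that gene disagreed. Serpina3f, Tarm1 and Slc6a19 were above background on 1 WT M0 array each, and Ptgs2, Gbp6 and Clic5 on 3.

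Cell division genes made up most of the 15 largest falls. Ccna2, the A-type cyclin of S phase and mitosis, had levels of -5.34, -5.34, -4.73 and -4.97 in the WT M1 arrays, against 3.89, 2.47, 3.87 and 4.06 in the WT M0 arrays (log2 difference -8.66 ± 0.38, limma adjusted p = 9.7e-13), a 406-fold fall with the arrays of WT M0 all above every WT M1 array. Pimreg, a regulator of the mitotic metaphase to anaphase transition, had levels of -7.21, -8.01, -7.98 and -7.0 in the WT M1 arrays, against 3.41, 1.87, 3.25 and 3.37 in the WT M0 arrays, and no WT M1 array was above background, a fall of at least 772-fold (limma adjusted p = 1.61e-13). WT M0 replicate 2 had the lowest WT M0 level of both genes.

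In 9 further genes no WT M1 array was above background, and the falls are bounds: at least 349-fold in Cenpf, 291-fold in Pbk, 296-fold in Aspm, 142-fold in Ska1, 127-fold in Kif4, 91-fold in E2f7, 149-fold in Knl1, 151-fold in Neil3 and 70.4-fold in Kif14, with limma adjusted p-values from 1.8e-14 to 9.98e-11. Cenpf, Ska1 and Knl1 act at the kinetochore, Aspm at spindle poles, Kif4 and Kif14 are mitotic motor proteins, Pbk is a mitotic kinase, Neil3 is a DNA glycosylase of dividing cells and E2f7 a repressor of E2F targets. Nusap1, a spindle protein above background on 3 WT M1 arrays, fell by 7.81 on the log2 scale (limma adjusted p = 2.35e-12). The remaining falls were not cell cycle genes. Slco2b1, an organic anion transporter, had levels of -5.22, -4.60, -2.29 and -4.45 in the WT M1 arrays, against 3.42, 4.54, 4.30 and 4.48 in the WT M0 arrays (log2 difference -8.33 ± 0.61, limma adjusted p = 7.82e-10), but its second probe had a difference of 0.40. Gpr34, a lysophospholipid receptor of macrophages and microglia, had a difference of -7.88 ± 0.75 with 1 WT M1 array above background, and Retnlg, a resistin-like gene of granulocytes, fell at least 149-fold (adjusted p = 1.01e-07). The other probes of E2f7 ranged from -3.80 to 0.71, and the smallest falls on other probes were -1.56 in Knl1 and -1.12 in Kif14.

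**Figure D2:**
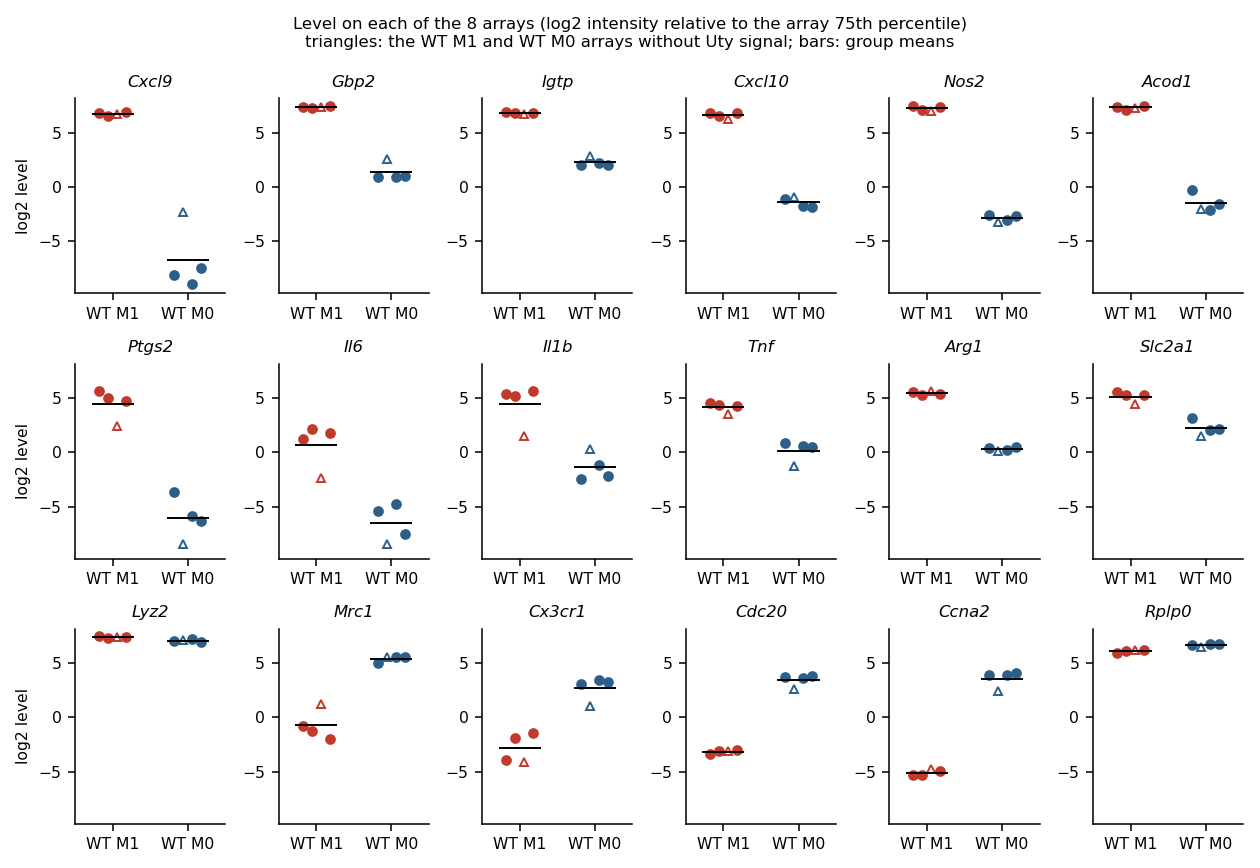
Level of 18 genes on each array (log2 intensity relative to the array 75th percentile), WT M1 in red on the left of each panel and WT M0 in blue on the right, with bars at the group means and open triangles for the 2 arrays without Uty signal. Il6, Il1b and Ptgs2 are lowest among WT M1 on the triangle, and Cxcl9 and Gbp2 are highest among WT M0 on it.

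The lists of genes that follow were drawn up by role with earlier results of these data known, so each is described by its counts and median beside the background of 25.0% of genes higher and 23.0% lower, with no test of the list. They hold 998 distinct genes, of which 966 were tested, 27 were on the array but did not pass the filter on dim probes and 5 were not matched to a probe.

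Among the receptors and adaptors of LPS and interferon-gamma, 14 of 21 rose, 5 fell and 2 did not pass the test (median 0.63). The kinase Jak2 had levels of 3.31, 3.39, 2.64 and 3.62 in the WT M1 arrays, against 0.24, 0.78, 0.36 and 0.07 in the WT M0 arrays (log2 difference 2.88 ± 0.27, limma adjusted p = 2.32e-08). Rises were smaller for the adaptors and kinases Irak2 (1.4), Tbk1 (1.35), Tirap (1.29) and Myd88 (1.21), and for Ifngr2 (0.80), Tlr4 (0.63) and Jak1 (0.56). Cd14 had a difference of 0.88 with overlapping groups, and its call was lost on leaving out any WT M1 or WT M0 array except WT M1 replicate 3, at 0.69 to 0.89. The interferon-gamma receptor chain Ifngr1 fell, with levels of 3.12, 3.33, 3.61 and 3.03 in the WT M1 arrays, against 4.44, 5.24, 4.99 and 4.90 in the WT M0 arrays (log2 difference -1.62 ± 0.22, limma adjusted p = 3.8e-06). Falls also came in the LPS carrier Lbp (-1.67), the Tlr4 partner Ly96 (-1.51), whose second probe had 0.54, and the kinases Irak4 (-0.86) and Irak1 (-0.55). The Lbp call was lost without WT M1 replicate 2 (-1.54) or WT M0 replicate 2 (-1.16), and the Ly96 call without WT M1 replicate 1, WT M0 replicate 1 or WT M0 replicate 3, at -1.28 to -1.43. Of the 9 other Toll-like receptors listed, 4 rose and 2 fell. Tlr3, the receptor for double-stranded RNA, was at 2.16, against Tlr2, the receptor for bacterial lipopeptides, at -1.65 and Tlr5, the flagellin receptor, at -1.99. Tlr12, also a Toll-like receptor, rose by 6.06 ± 0.79 (limma adjusted p = 1.94e-06), with 3 WT M0 arrays above background.

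In the NF-kappaB list, 10 of 14 genes rose and 0 fell (median 0.96), and 4 of its 5 largest rises were in genes that restrain the pathway. The inhibitor Nfkbie had levels of 4.42, 4.35, 3.32 and 4.26 in the WT M1 arrays, against 1.43, 1.18, 1.46 and 1.5 in the WT M0 arrays (log2 difference 2.69 ± 0.36, limma adjusted p = 3.36e-06). The deubiquitinase Tnfaip3 (A20) rose by 1.97, the inhibitors Nfkbia by 1.84 and Nfkbib by 1.76, and the cofactor Bcl3 by 1.81. The subunits Nfkb2 (1.19), Rela (0.72) and, with overlapping groups, Relb (0.76) rose, and Nfkb1 (0.04) and Rel (-0.02) did not pass the test.

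Irf1, a transcription factor that interferon-gamma induces, had levels of 7.06, 6.85, 6.94 and 6.91 in the WT M1 arrays, against 3.62, 4.32, 3.64 and 3.92 in the WT M0 arrays (log2 difference 3.07 ± 0.23, limma adjusted p = 4.02e-09). In the list of STAT, IRF and BATF factors 12 of 19 rose and 2 fell, including rises of 5.06 in Batf2, 3.31 in Irf7 and 3.18 in Stat2. Irf4, which takes part in the response to interleukin-4, had a difference of -3.92 ± 0.23 with 2 of 4 WT M1 arrays above background, and -0.79 on its second probe. Stat5b had a difference of -0.39 with overlapping groups, not called without WT M1 replicate 4 (-0.30). Among 18 feedback inhibitors 11 rose and 1 fell. Socs1, which blocks Jak kinases, had levels of 6.39, 5.84, 5.8 and 5.79 in the WT M1 arrays, against -2.16, -2.08, -2.43 and -2.44 in the WT M0 arrays (log2 difference 8.23 ± 0.26, limma adjusted p = 1.8e-14). Usp18, which removes Isg15 and restrains type I interferon signalling, rose by 6.15 over 3 measured WT M1 arrays, Socs3 by 5.48, the interleukin-1 receptor antagonist Il1rn by 5.41 and Cish by 2.29. Sigirr, a decoy of Toll and interleukin-1 receptor signalling, fell by 1.87.

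All 17 tested members of the guanylate-binding protein (GBP) and immunity-related GTPase (IRG) list rose at least 2-fold, of 19 listed (2 were not matched to a probe), with a median of 6.03. These proteins attack the vacuoles of intracellular pathogens. Their promoters are printed for 3 members and for the chemokine Cxcl10, because they hold matches to the motifs through which the added stimuli are known to act. Sequences are the 250 bases before and 50 after the start of transcription from RefSeq on GRCm38.p6, 5′ to 3′ on the strand of the gene, and capitals mark matches on either strand to GAAA and GAAA around any 2 bases (the interferon-stimulated response element, bound by IRF factors and their complexes with STAT proteins), TTC and GAA around any 3 bases (the gamma-activated site, bound by STAT proteins) or GGGA and TCC around any 3 bases (NF-kappaB).
Gbp2 (chr3:142620413-142620712, plus strand): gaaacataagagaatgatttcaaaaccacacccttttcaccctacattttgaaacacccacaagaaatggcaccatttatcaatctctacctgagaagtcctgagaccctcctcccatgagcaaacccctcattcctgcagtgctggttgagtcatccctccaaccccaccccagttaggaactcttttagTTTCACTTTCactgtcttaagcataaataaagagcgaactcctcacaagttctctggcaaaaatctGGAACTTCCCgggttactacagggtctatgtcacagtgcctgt
Gbp5 (chr3:142496684-142496983, plus strand): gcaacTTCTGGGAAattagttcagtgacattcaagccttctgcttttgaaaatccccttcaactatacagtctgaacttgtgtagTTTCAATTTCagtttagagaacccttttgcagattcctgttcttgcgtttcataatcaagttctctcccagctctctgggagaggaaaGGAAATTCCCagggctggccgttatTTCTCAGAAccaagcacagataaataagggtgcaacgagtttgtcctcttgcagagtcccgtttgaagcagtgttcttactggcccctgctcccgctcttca
Igtp (chr11:58199306-58199605, plus strand): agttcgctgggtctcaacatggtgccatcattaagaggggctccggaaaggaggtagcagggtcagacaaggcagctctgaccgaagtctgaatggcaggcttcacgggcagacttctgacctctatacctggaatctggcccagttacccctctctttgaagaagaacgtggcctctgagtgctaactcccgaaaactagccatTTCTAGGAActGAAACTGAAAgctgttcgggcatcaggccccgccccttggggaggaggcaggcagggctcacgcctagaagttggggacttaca
Cxcl10 (chr5:92348840-92349139, minus strand): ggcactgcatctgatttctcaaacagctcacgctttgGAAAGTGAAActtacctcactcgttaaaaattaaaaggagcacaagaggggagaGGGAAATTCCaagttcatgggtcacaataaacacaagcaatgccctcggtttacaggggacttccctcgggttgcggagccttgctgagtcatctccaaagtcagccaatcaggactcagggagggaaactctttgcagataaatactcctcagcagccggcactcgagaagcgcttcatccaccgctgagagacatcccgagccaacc
The interferon-stimulated response element match lay at -59 to -50 relative to the start in Gbp2, -165 to -156 in Gbp5, -34 to -25 in Igtp and -213 to -204 in Cxcl10. Gamma-activated site matches lay at -245 to -237 and -52 to -44 in Gbp5 and at -45 to -37 in Igtp. NF-kappaB matches lay at 8 to 17 in Gbp2, -77 to -68 in Gbp5 and -159 to -150 in Cxcl10.

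Of the 4 genes with printed promoters, Gbp2 had levels of 7.45, 7.28, 7.42 and 7.52 in the WT M1 arrays, against 0.96, 2.63, 0.91 and 1.05 in the WT M0 arrays (log2 difference 6.03 ± 0.49, limma adjusted p = 3.48e-09). Gbp5, which also promotes inflammasome assembly, had levels of 5.38, 5.02, 4.64 and 5.12 in the WT M1 arrays, against -2.2, -0.78, -1.84 and -1.85 in the WT M0 arrays (log2 difference 6.71 ± 0.40, limma adjusted p = 4.11e-11), and its second probe had a difference of 0.67. Igtp had levels of 6.95, 6.82, 6.81 and 6.90 in the WT M1 arrays, against 2.09, 2.89, 2.21 and 2.05 in the WT M0 arrays (log2 difference 4.56 ± 0.24, limma adjusted p = 7.91e-12). The WT M1 arrays of each gene agreed to within 1 unit, and the highest WT M0 array in Gbp2, Gbp5 and Igtp was replicate 2. The remaining members ranged from 3.62 in Irgm2 to 12.03 in Gbp4, where 3 WT M1 arrays had a value and 1 WT M0 array was above background. In the set without Uty signal the median of the list was 4.97, the lowest of the 4 sets.

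Among 12 promoters of 11 GBP and IRG genes found in the RefSeq table, 10 (83.3%) held the interferon-stimulated response element, beside 3.44% of all 32851 promoters, and 6 (50%) held the gamma-activated site, beside 8.3%. Over genes that rose at least 16-fold the shares were 18.4% and 13.5% of 207 promoters, against 2.71% and 7.39% of 8381 promoters of genes that were not called. The NF-kappaB match was in 7.25% of the promoters of genes that rose at least 16-fold, against 5.12% for genes that were not called and 4.59% of all promoters. These are matches to letters in a fixed window and were not tested.

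**Figure D3:**
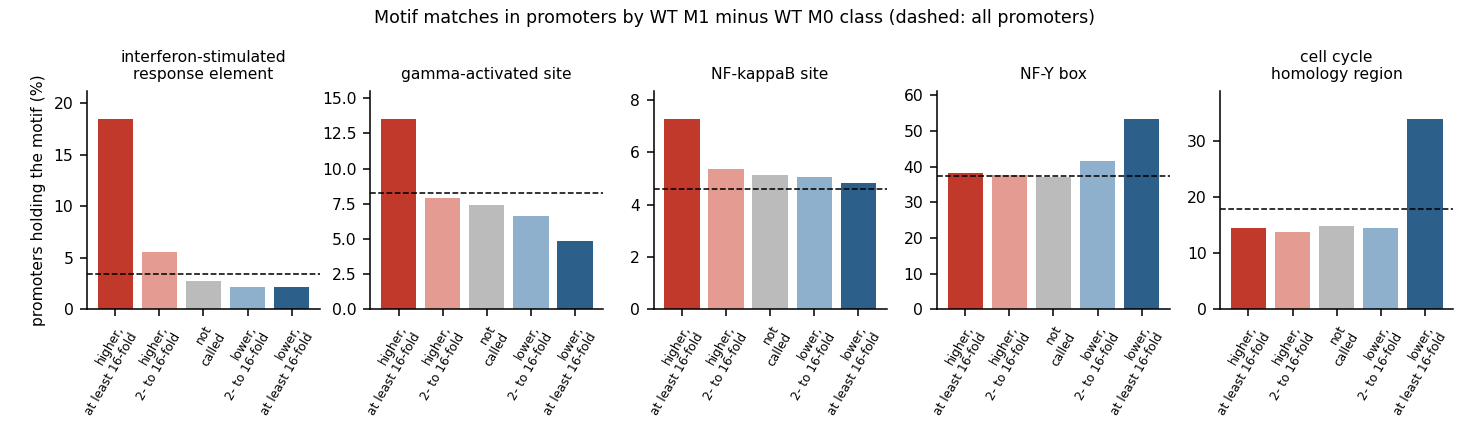
Share of promoters holding each of 5 motifs (percent, both strands, 250 bases before to 50 after the start) by class of WT M1 minus WT M0 difference, from higher by at least 16-fold on the left to lower by at least 16-fold on the right; the dashed line is the share in all promoters. The interferon-stimulated response element is most frequent in the class that rose at least 16-fold (18.4%), and the cell cycle homology region in the class that fell at least 16-fold (33.9%).

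Antiviral interferon-stimulated genes rose in 29 of 30 cases (median 3.66). Rsad2 (viperin), an inhibitor of viral replication, had levels of 7.13, 6.98, 6.78 and 7.25 in the WT M1 arrays, against -1.02, 1.4, -0.63 and -0.82 in the WT M0 arrays (log2 difference 7.30 ± 0.64, limma adjusted p = 9.97e-09). Other large rises were 7.95 in Ifi44, 7.51 in Mx1, an antiviral GTPase, 7.04 in Ifit2, which binds foreign RNA, and 6.55 in Isg20, an exonuclease. Ifitm1, at 0.15, was the member that did not pass the test. The median by set ran from 2.51 in the set without Uty signal to 4.27. In 26 promoters of 23 of these genes, 14 (53.8%) held the interferon-stimulated response element.

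Inflammatory cytokines rose in 16 of 20 tested genes and fell in 3, and 3 more (Il23a, Csf2 and Lif) did not pass the filter. Il12b, a subunit of interleukin-12 and interleukin-23, had levels of 2.01, 2.96, 1.93 and 3.07 in the WT M1 arrays, against -5.06, -5.32, -6.05 and -5.61 in the WT M0 arrays (log2 difference 8.01 ± 0.44, limma adjusted p = 6.62e-11). Il6 had levels of 1.26, 2.12, -2.34 and 1.77 in the WT M1 arrays, against -5.40, -8.45, -4.72 and -7.54 in the WT M0 arrays (log2 difference 7.23 ± 1.1, limma adjusted p = 1.53e-05), with 2 WT M0 arrays above background. Il1b, a pyrogenic cytokine, had levels of 5.40, 5.18, 1.52 and 5.70 in the WT M1 arrays, against -2.43, 0.35, -1.17 and -2.17 in the WT M0 arrays (log2 difference 5.81 ± 1.01, limma adjusted p = 8.19e-05). In both, WT M1 replicate 3 lay below the other 3 WT M1 arrays and above every WT M0 array. Tnf had levels of 4.60, 4.35, 3.53 and 4.31 in the WT M1 arrays, against 0.90, -1.26, 0.54 and 0.47 in the WT M0 arrays (log2 difference 4.04 ± 0.52, limma adjusted p = 1.61e-06), with no overlap.

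Il1a rose by 7.59 with 1 WT M0 array above background, the death ligand Tnfsf10 (TRAIL) by 6.40 (2.28 on its second probe), and Ifnb1, encoding interferon-beta, at least 20.2-fold with no WT M0 array above background. Il10, an anti-inflammatory cytokine, had a difference of 1.89 ± 0.49, and its groups overlapped through WT M1 replicate 3. The falls were Tnfsf14 (-1.59), Spp1, encoding osteopontin (-0.57, with overlapping groups), and Tgfb1 (-0.47). The median of the list was 2.39, and 1.09 in the set without Uty signal.

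Both chemokine families held rises, falls and members that did not pass the test. Cxcl10, a ligand of Cxcr3 like Cxcl9, had levels of 6.88, 6.63, 6.29 and 6.85 in the WT M1 arrays, against -1.07, -0.87, -1.70 and -1.83 in the WT M0 arrays (log2 difference 8.03 ± 0.53, limma adjusted p = 1.8e-10). Of 10 CXC chemokines 5 rose and 1 fell: Cxcl16 rose by 2.11, Cxcl3, a neutrophil attractant, by 5.44 and Cxcl5 by 2.99, the last 2 with overlapping groups and 3 WT M0 arrays above background. The Cxcl3 call was lost on leaving out WT M1 replicate 1, 2 or 4 or WT M0 replicate 2, at 4.47 to 5.10. Cxcl12 fell at least 2.37-fold, with no WT M1 array above background, and was not called under normexp background correction (-0.92, adjusted p = 0.0539). The neutrophil attractants Cxcl1 (-0.32) and Cxcl2 (0.71) and the Cxcr3 ligand Cxcl11 (0.26) did not pass the test. Cxcl1 and Cxcl2 had their lowest WT M1 level on replicate 3, and without the set that lacks Uty signal Cxcl2 was called at 1.33 (limma adjusted p = 0.0233). The median of the CXC list by set ran from 0.10 in the set without Uty signal to 2.36.

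Of 13 CC and CX3C chemokines tested, 6 rose and 4 fell. The monocyte attractants rose: Ccl2 had levels of 7.49, 7.31, 6.78 and 7.65 in the WT M1 arrays, against 5.15, -1.99, 4.03 and 3.98 in the WT M0 arrays (log2 difference 4.52 ± 1.16, limma adjusted p = 0.00282). WT M0 replicate 2 was far below the other WT M0 arrays, and every WT M1 array lay above all 4. Differences were 6.97 in Ccl8, 6.96 in Ccl12, 5.57 in Ccl7 and 4.01 in Ccl5, which attracts T cells. Ccl3 (-1.49) and Ccl4 (-0.68), early products of LPS stimulation, did not pass the test at 24 h, and without the set that lacks Uty signal Ccl3 was called at -1.26 (limma adjusted p = 0.0499). Cx3cl1 fell by 2.80, though its second probe had 0.31, and Ccl6 fell by 1.91.

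Receptors for chemoattractants moved both ways, 8 of 19 higher and 9 lower. Ccr7, which guides cells to lymph nodes, had levels of 1.14, 2.85, 0.15 and 2.08 in the WT M1 arrays, against -6.16, -3.79, -5.64 and -6.11 in the WT M0 arrays (log2 difference 6.98 ± 0.79, limma adjusted p = 3.03e-07). The formyl peptide receptors Fpr1 and Fpr2, which sense bacteria, rose by 6.17 and 5.75. The fractalkine receptor Cx3cr1 had levels of -3.91, -1.85, -4.13 and -1.47 in the WT M1 arrays, against 3.06, 1.09, 3.41 and 3.26 in the WT M0 arrays (log2 difference -5.55 ± 0.73, limma adjusted p = 2.39e-06). Falls followed in Cxcr3 (-3.71), Cxcr4 (-3.17) and the monocyte receptor Ccr2 (-1.98, with overlapping groups).

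Around nitric oxide synthesis, the arginine transporter Slc7a2 rose by 6.61 ± 0.39, argininosuccinate synthase Ass1, which regenerates arginine from citrulline, by 5.65 ± 0.30, and Gch1, the first enzyme of the cofactor tetrahydrobiopterin, by 2.09 ± 0.16. The list as a whole had 6 of 14 tested genes higher and 2 lower. Arginase 1 (Arg1), which competes for arginine and is a marker of interleukin-4 activation, also rose, with levels of 5.61, 5.27, 5.68 and 5.41 in the WT M1 arrays, against 0.39, 0.14, 0.19 and 0.48 in the WT M0 arrays (log2 difference 5.2 ± 0.38, limma adjusted p = 6.92e-10). Its groups were tight and did not overlap. The argininosuccinate lyase Asl (-0.19) and arginase 2 (Arg2, 1.70) did not pass the test, and Arg2 was called without the set that lacks Uty signal (2.98, limma adjusted p = 1.02e-05). Ddah2, which degrades inhibitors of nitric oxide synthase, fell by 3.11, and Qdpr, which recycles the cofactor, fell by 1.25. Of 7 genes of the phagocyte NADPH oxidase 5 rose, Rac2 by 1.23 and the catalytic subunit Cybb by 1.03.

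Beside Acod1 and Upp1, the cholesterol hydroxylase Ch25h rose by 7.86 with 3 WT M0 arrays above background, indoleamine dioxygenase Ido1 by 5.81 with 1, and kynureninase Kynu by 5.43 with 3, and in all 10 of 12 genes of immune metabolite synthesis rose. Kmo, the kynurenine branch point, fell by 2.48, and the sterol hydroxylase Cyp27a1 fell by 4.22. Eicosanoid enzymes moved in opposite directions. With Ptgs2 rose phospholipase Pla2g4a (3.77, and 1.0 on its second probe) and prostaglandin E synthase Ptges (1.16). The constitutive cyclooxygenase Ptgs1 had levels of -2.21, -2.66, -1.38 and -2.60 in the WT M1 arrays, against 2.82, 2.55, 2.86 and 3.17 in the WT M0 arrays (log2 difference -5.06 ± 0.27, limma adjusted p = 1.37e-11). Hpgd, which breaks down prostaglandins, had levels of -6.2, -6.0, -5.06 and -6.3 in the WT M1 arrays, against 0.13, 1.55, 2.81 and 2.44 in the WT M0 arrays (log2 difference -7.62 ± 0.76, limma adjusted p = 6.49e-08). Alox5, the lipoxygenase of leukotriene synthesis, fell by 3.91.

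Antigen presentation genes rose in both classes. For class I loading and the immunoproteasome 15 of 18 tested genes rose and 0 fell (median 1.87). Tap1, the peptide transporter subunit, had levels of 5.93, 5.87, 5.73 and 6.11 in the WT M1 arrays, against 1.99, 2.80, 2.22 and 1.98 in the WT M0 arrays (log2 difference 3.66 ± 0.17, limma adjusted p = 1.91e-12). The class I transactivator Nlrc5 rose by 3.90, the peptide editor Tapbpl by 3.84, Tap2 by 3.0 and the immunoproteasome subunits Psmb9 and Psmb8 by 2.74 and 2.42. Rises in the class I chains were smaller, 0.75 in H2-D1, 0.68 in H2-K1 and 0.47 in B2m. H2-K1 and H2-D1 belong to a family of near-identical genes, so their probes may share signal.

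Class II genes rose in 14 of 15 cases (median 1.35). The class II transactivator Ciita had levels of 2.34, 2.22, 2.46 and 2.0 in the WT M1 arrays, against -0.40, 1.03, -0.08 and -0.42 in the WT M0 arrays (log2 difference 2.22 ± 0.36, limma adjusted p = 3.08e-05). H2-Oa rose by 4.76, H2-Ab1 by 2.73, H2-Aa by 2.22 and the invariant chain Cd74 by 2.43. The constitutive proteasome rose with them by less, in 24 of 28 genes (median 0.68), led by Psmb5 (1.4) and Psma5 (1.33).

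Co-stimulatory and checkpoint ligands rose in 12 of 17 tested genes and fell in 2 (median 3.03). Cd40, the receptor for T cell help, had levels of 4.65, 4.68, 3.79 and 4.43 in the WT M1 arrays, against -0.95, -1.96, -0.72 and -0.95 in the WT M0 arrays (log2 difference 5.53 ± 0.23, limma adjusted p = 5.76e-13). Cd274 (PD-L1), which inhibits T cells, had levels of 7.06, 6.80, 6.75 and 7.06 in the WT M1 arrays, against 1.44, 2.06, 1.54 and 2.24 in the WT M0 arrays (log2 difference 5.10 ± 0.23, limma adjusted p = 1.33e-12). Cd69 rose by 6.35, Slamf8 by 5.22 and Cd86 by 4.31, the last 2 over 3 measured WT M1 arrays. Cd80, the other B7 ligand of Cd28, fell by 1.80 on its brightest probe, but its 3 other probes ranged from -0.08 to 0.85 and the mean over its probes did not pass the test.

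Inflammasome and cell death genes rose in 18 of 24 cases and fell in 0 (median 1.19). Casp4, the sensor of cytosolic LPS in the mouse, had levels of 4.74, 5.05, 3.58 and 5.14 in the WT M1 arrays, against 0.35, 1.54, 2.12 and 2.37 in the WT M0 arrays (log2 difference 3.03 ± 0.49, limma adjusted p = 4.56e-05). Mlkl, the effector of necroptosis, rose by 3.68, Mefv (pyrin) by 3.48, Casp1 by 2.14, the pore-forming Gsdmd by 1.83 and Nlrp3 by 0.86, a call lost without WT M1 replicate 1 (0.69). Fas rose by 2.17, with other probes from -0.10 to 1.74.

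Complement genes made by macrophages rose in 7 of 14 cases and fell in 3. Factor B (Cfb), of the alternative pathway, had levels of 7.07, 6.73, 6.79 and 6.95 in the WT M1 arrays, against -0.77, 2.53, -2.57 and -3.49 in the WT M0 arrays (log2 difference 7.96 ± 1.3, limma adjusted p = 3.47e-05). C3 rose by 4.30 and C1s1 by 5.19 (1.23 on its second probe). C1qa (-0.66) did not pass the test, but did without WT M1 replicate 3 (-0.83, limma adjusted p = 0.0494). In the protease list 8 of 20 rose and 4 fell: Mmp25 rose at least 76.6-fold with no WT M0 array above background and Mmp14 by 4.09, and falls came in Timp2 (-3.04, and -1.17 on its second probe) and Mmp27 (-3.04).

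Iron and metal genes had 8 rises and 3 falls among 19. Saa3, an acute phase protein, had levels of 7.84, 7.42, 7.63 and 7.75 in the WT M1 arrays, against 4.27, 3.63, 0.52 and -0.19 in the WT M0 arrays (log2 difference 5.60 ± 1.09, limma adjusted p = 0.000234). The iron exporter ferroportin, Slc40a1, had levels of 2.26, 2.06, 3.14 and 1.54 in the WT M1 arrays, against 3.80, 5.27, 4.74 and 5.0 in the WT M0 arrays (log2 difference -2.45 ± 0.43, limma adjusted p = 7.2e-05). The zinc and manganese importer Slc39a8 fell by 4.73, and the transferrin receptor Tfrc fell by 1.61. Lcn2, which binds bacterial siderophores, had a difference of 0.78 that did not pass the test.

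**Figure D4:**
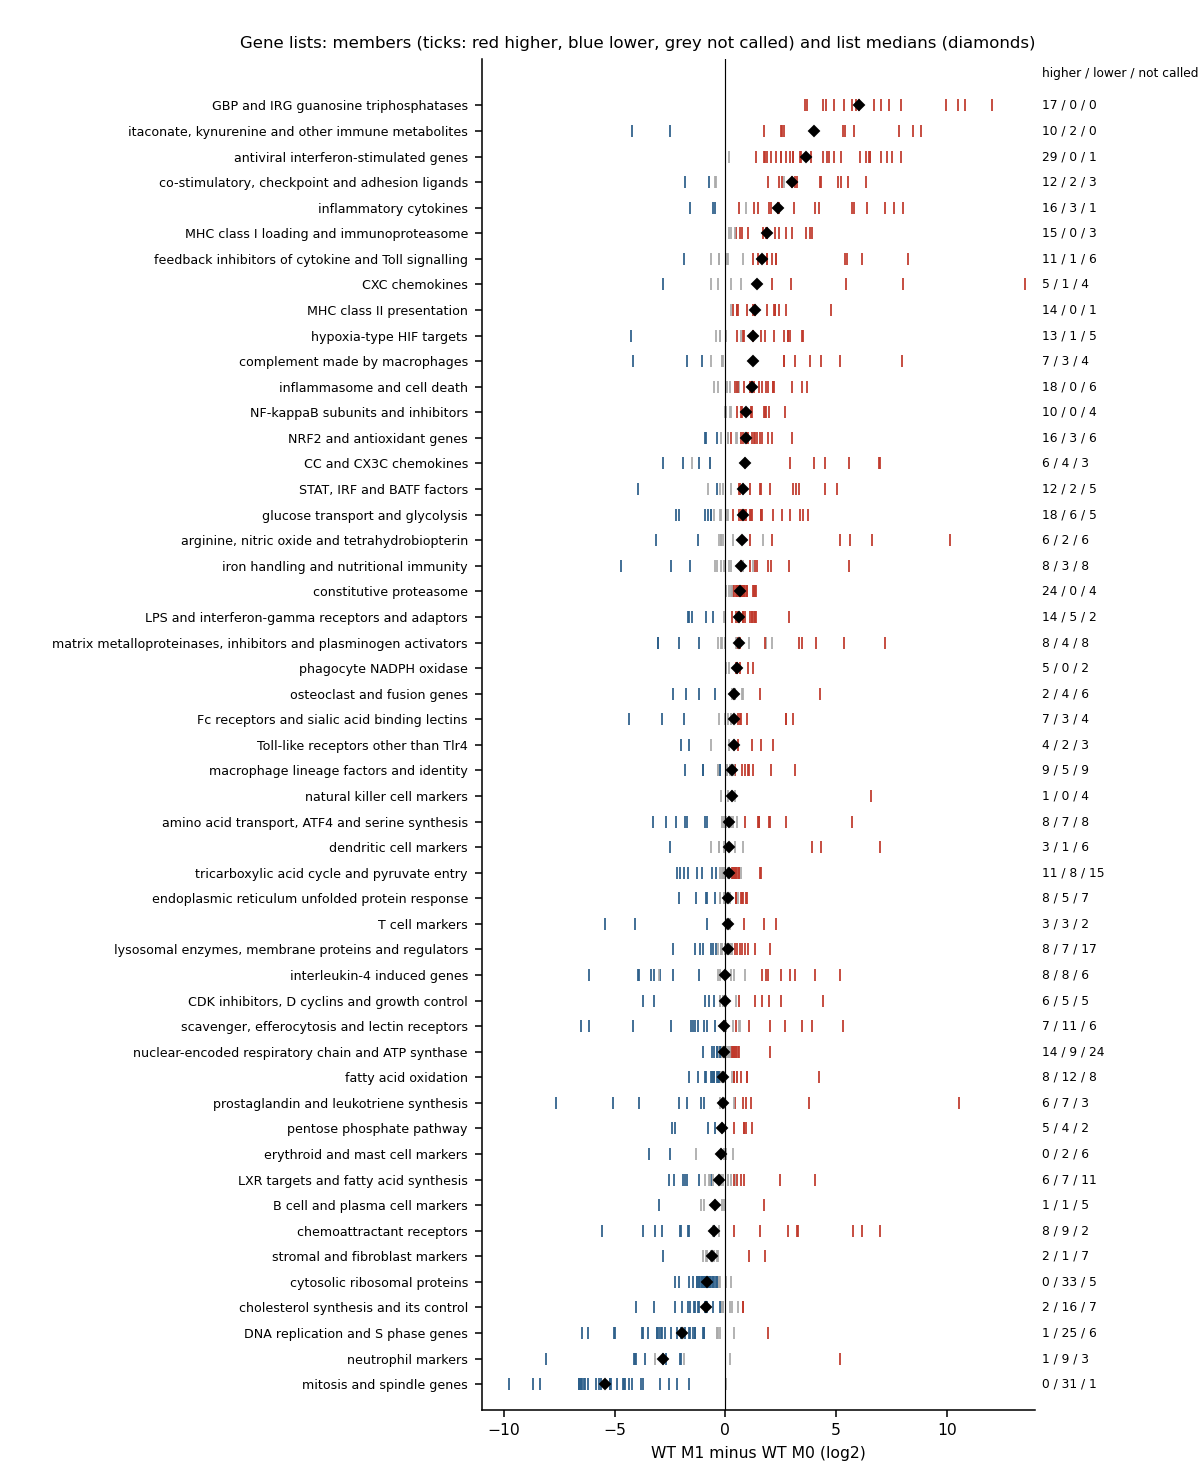
Difference of every tested member of the 51 gene lists (ticks, WT M1 minus WT M0, log2; red higher, blue lower, grey not called) with the list median as a diamond, ordered by median, and the counts of members higher, lower and not called on the right. The GBP and IRG list has the highest median (6.03) and the mitosis and spindle list the lowest (-5.41).

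The floxed gene itself was among those that responded. Slc2a1 had levels of 5.55, 5.31, 4.44 and 5.29 in the WT M1 arrays, against 3.19, 1.52, 2.1 and 2.14 in the WT M0 arrays (log2 difference 2.91 ± 0.34, limma adjusted p = 4.18e-07), a 7.53-fold rise with no overlap, and its probe lies at chr4:118809864-118809923 (mm9). Glucose transport and glycolysis genes rose in 18 of 29 cases and fell in 6 (median 0.79). Pfkfb3, which makes the activator of phosphofructokinase, had levels of 6.37, 6.53, 5.99 and 6.54 in the WT M1 arrays, against 1.98, 3.35, 2.35 and 2.75 in the WT M0 arrays (log2 difference 3.75 ± 0.28, limma adjusted p = 1.06e-09). The lactate exporter Slc16a3 had levels of 6.68, 6.39, 5.92 and 6.42 in the WT M1 arrays, against 3.77, 2.59, 2.61 and 2.46 in the WT M0 arrays (log2 difference 3.5 ± 0.27, limma adjusted p = 1.81e-09). Rises also came in the transporter Slc2a6 (3.35), phosphofructokinase Pfkl (2.57), hexokinase 2, Hk2 (2.14), and lactate dehydrogenase Ldha (0.70).

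Isoforms of the same steps moved the other way. Falls came in Pfkm (-0.78, with overlapping groups), Pfkfb2 (-0.64) and Ldhb, the other lactate dehydrogenase chain (-2.24). Pfkfb2 was at 0.06 when its probes were averaged. The transporter Slc2a3 fell by 0.92, a call lost without WT M1 replicate 1, WT M0 replicate 3 or WT M0 replicate 4, at -0.74 to -0.82. The gluconeogenic enzyme Fbp1 fell at least 3.36-fold with no WT M1 array above background. Hexokinase 1, Hk1, was at 0.09 and did not pass the test.

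Hypoxia-type targets rose in 13 of 19 tested genes and fell in 1 (median 1.27). Hif1a, the inducible subunit of the hypoxia factor, had levels of 5.19, 5.15, 4.47 and 5.01 in the WT M1 arrays, against 2.47, 3.42, 2.60 and 2.61 in the WT M0 arrays (log2 difference 2.18 ± 0.23, limma adjusted p = 1.62e-07). Its targets Adm, Egln3 and Vegfa rose by 3.52, 3.47 and 2.85. Epas1, the related subunit HIF-2-alpha, had levels of -1.43, -2.0, -1.82 and -1.74 in the WT M1 arrays, against 3.25, 1.72, 2.35 and 2.69 in the WT M0 arrays (log2 difference -4.25 ± 0.30, limma adjusted p = 5.79e-10). The antioxidant list had 16 of 25 genes higher and 3 lower. Mitochondrial superoxide dismutase, Sod2, rose by 3.0 ± 0.22 and Prdx6 by 2.11, while the regulator Nfe2l2 (NRF2) fell by 0.89, a call lost when its probes were averaged (-0.53).

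The tricarboxylic acid cycle and respiratory chain lists lay near the background shares of 25.0% higher and 23.0% lower. In the tricarboxylic acid cycle 11 of 34 tested genes rose (32.4%) and 8 fell (23.5%). Idh1, the cytosolic isocitrate dehydrogenase, had levels of -1.34, -1.02, -0.17 and -1.16 in the WT M1 arrays, against 0.97, 1.55, 1.2 and 1.34 in the WT M0 arrays (log2 difference -2.19 ± 0.20, limma adjusted p = 2.42e-08). Falls followed in mitochondrial Idh2 (-2.06), Suclg2 (-1.87) and fumarase Fh1 (-1.68), against a rise of 1.59 in malic enzyme Me1, which was not called without WT M1 replicate 1 (1.39) or WT M0 replicate 2 (1.23). The respiratory chain had 14 of 47 tested genes higher (29.8%) and 9 lower (19.1%, median -0.06), from 2.0 in cytochrome c, Cycs, to -1.01 in Ndufs8. Fatty acid oxidation had 8 of 28 higher (28.6%) and 12 lower (42.9%), with the acyl-CoA synthetase Acsl1 at 4.25 and Etfb at -1.63. In the pentose phosphate pathway 5 of 11 rose and 4 fell, including Pgd (1.21, and 0.28 to 0.39 on its other probes) and the ribose phosphate synthetases Prps1 (-2.25) and Prps2 (-2.4).

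Cholesterol synthesis was lower in 16 of 25 genes and higher in 2 (median -0.89). Idi1 had levels of -1.32, -1.67, -1.24 and -1.56 in the WT M1 arrays, against 2.35, 1.31, 1.69 and 1.68 in the WT M0 arrays (log2 difference -3.20 ± 0.19, limma adjusted p = 3.39e-11) and Fdps fell by 2.27, both enzymes of the mevalonate branch. Fatty acid synthase, Fasn, fell by 2.53 and Hilpda, which blocks lipid breakdown in droplets, rose by 4.03. The cystine importer Slc7a11 had levels of 2.29, 2.4, -0.65 and 2.82 in the WT M1 arrays, against -3.77, -3.98, -3.77 and -4.47 in the WT M0 arrays (log2 difference 5.71 ± 0.52, limma adjusted p = 1.52e-08), WT M1 replicate 3 being the lowest of its group and above every WT M0 array. The serine pathway enzyme Phgdh fell by 2.66, and Shmt1 fell at least 5.53-fold with no WT M1 array above background, though its second probe had -0.22. Unfolded protein response genes had 8 of 20 higher, each by under 2-fold, and 5 lower, with Herpud1 at -2.09.

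Genes of macrophage identity had 9 of 23 members higher and 5 lower. Lyz2, the gene whose promoter drives the Cre of the KO mice, had levels of 7.48, 7.32, 7.43 and 7.39 in the WT M1 arrays, against 7.02, 7.13, 7.25 and 7.0 in the WT M0 arrays. The difference of 0.30 ± 0.38 did not pass the test (limma adjusted p = 0.546), with a standard error estimated over all 24 arrays. The 2 groups themselves did not overlap (standard deviations 0.07 and 0.12), and the difference was 0.07 to 0.46 in the 4 sets. The second Lyz2 probe had -1.23. Csf1r, the M-CSF receptor, was at 0.08 and did not pass the test. The factors Klf4 (3.15), Cebpb (2.05) and Spi1 (1.02) rose, as did Adgre1, encoding F4/80, by 0.40, a call that was lost under quantile normalization (0.26) and on scaling to probes detected on all 24 arrays (0.24). The lipid receptor Trem2 fell by 1.80.

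Surface receptors moved both ways, 7 of 24 scavenger and lectin receptors higher and 11 lower. The scavenger receptor Marco had levels of 6.98, 5.89, 6.92 and 6.12 in the WT M1 arrays, against 2.21, 3.13, -0.43 and -0.25 in the WT M0 arrays (log2 difference 5.31 ± 1.22, limma adjusted p = 0.00112). The mannose receptor Mrc1 had levels of -0.81, -1.27, 1.26 and -1.98 in the WT M1 arrays, against 5.02, 5.62, 5.54 and 5.54 in the WT M0 arrays (log2 difference -6.13 ± 0.44, limma adjusted p = 5.46e-10). WT M1 replicate 3 was the highest of its group for Mrc1, still below every WT M0 array. Clec4e, a receptor for mycobacterial lipid, rose by 3.91, Cd163, the haemoglobin scavenger receptor, fell at least 28.2-fold with no WT M1 array above background, and Gas6, a bridge for apoptotic cells, fell by 4.14. The high-affinity immunoglobulin receptor Fcgr1 had levels of 6.43, 6.29, 6.16 and 6.45 in the WT M1 arrays, against 3.24, 4.04, 3.02 and 2.87 in the WT M0 arrays (log2 difference 3.04 ± 0.41, limma adjusted p = 3.69e-06). Fcrls, a related receptor, fell by 4.34.

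Genes that interleukin-4 is known to induce had 8 of 22 tested members higher and 8 lower (median 0.00). With Arg1 rose transglutaminase Tgm2 (4.05), while the lectins Clec10a (-2.93) and Chil3 (-3.91) and the factors Pparg (-3.33, and -1.29 on its second probe), Myc (-3.20) and Egr2 (-2.38) fell, the last 2 with overlapping groups. Retnla had levels of -8.72, -8.24, -7.51 and -6.53 in the WT M1 arrays, against -8.71, -5.75, -4.95 and 0.39 in the WT M0 arrays, no WT M1 array was above background, and the difference (-2.99) did not pass the test, but did without WT M0 replicate 1 (-4.31, limma adjusted p = 0.0129). Of 32 lysosomal genes 17 did not pass the test, 8 rose (25%) and 7 fell (21.9%), near the background of 25.0% and 23.0%. Among them cathepsin C, Ctsc, was at 2.03 and the proton pump subunit Atp6v0d2 at -2.38.

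Mitosis and spindle genes fell in 31 of 32 cases, each by at least 2-fold, and 0 rose (median -5.41). Cdc20, the activator of the anaphase-promoting complex, had levels of -3.34, -3.14, -3.07 and -3.03 in the WT M1 arrays, against 3.73, 2.63, 3.66 and 3.86 in the WT M0 arrays (log2 difference -6.62 ± 0.28, limma adjusted p = 5.62e-13). The proliferation marker Mki67 had levels of -0.98, -0.77, 0.17 and -0.73 in the WT M1 arrays, against 5.02, 3.75, 4.82 and 4.84 in the WT M0 arrays (log2 difference -5.18 ± 0.30, limma adjusted p = 3.45e-11). Top2a (-6.62), Ccnb2 (-6.58), Plk1 (-6.34), Aurka (-3.80) and Cdk1 (-3.70) fell as well. Tpx2, at 0.01, was the member that did not pass the test. WT M0 replicate 2 had the lowest WT M0 level of Cdc20 and Mki67, and the set median was -4.20 in its set and down to -6.13 in the others.

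Replication genes fell in 25 of 32 cases and rose in 1 (median -1.96). Their median by set was -1.10 in the set without Uty signal and down to -2.80 in the others. Rrm2, a subunit of ribonucleotide reductase, had levels of -3.38, -3.77, -3.32 and -3.69 in the WT M1 arrays, against 3.78, 1.27, 2.85 and 2.78 in the WT M0 arrays (log2 difference -6.21 ± 0.49, limma adjusted p = 2.35e-09). Thymidine kinase Tk1 fell by 6.46, although its other probes ranged from -6.53 to 0.51. Falls followed in Uhrf1 (-5.02) and the helicase subunits Mcm5 (-3.48) and Mcm2 (-2.74). Ccne1, cyclin E1, rose by 1.93 with overlapping groups, and Pcna was at 0.40 and did not pass the test. The cell cycle inhibitor Cdkn1a (p21) had levels of 5.72, 5.62, 5.08 and 5.34 in the WT M1 arrays, against 3.79, 3.24, 3.58 and 3.22 in the WT M0 arrays (log2 difference 1.98 ± 0.20, limma adjusted p = 9.56e-08). The D cyclins Ccnd2 and Ccnd1 rose by 4.42 and 2.51. The rise of Ccnd1 was not called without WT M0 replicate 2, at 1.44 (limma adjusted p = 0.0706). Cdkn2c, another inhibitor, fell by 3.71.

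In 26 promoters of 24 mitosis and spindle genes, CCAAT (the NF-Y box) was found in 84.6% and TTTGAA (the cell cycle homology region) in 76.9%, beside 37.4% and 17.9% of all promoters. For replication genes the shares were 59.4% and 12.5% of 32 promoters. Over genes that fell at least 16-fold they were 53.2% and 33.9% of 186 promoters, against 37.1% and 14.8% of promoters of genes that were not called. These shares were not tested.

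Cytosolic ribosomal protein genes fell in 33 of 38 cases and rose in 0 (median -0.84). Rplp0 had levels of 5.94, 6.16, 6.24 and 6.24 in the WT M1 arrays, against 6.66, 6.55, 6.75 and 6.74 in the WT M0 arrays (log2 difference -0.53 ± 0.11, limma adjusted p = 0.000381). The falls reached -1.62 in Rpl3 and -2.25 in Rpl10a, the last over 3 measured WT M1 arrays, while Rps24 was at 0.28 and did not pass the test. Many ribosomal protein genes have near-identical processed copies, so their probes may share signal.

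Markers of other cells were also looked at, since a marrow culture can hold them and bulk RNA cannot tell fewer cells from less RNA per cell. Neutrophil markers fell in 9 of 13 cases and rose in 1, and the summed level of the 13 on the linear scale was 13.7 to 49.9 on the WT M1 arrays, against 64.8 to 180 on the WT M0 arrays. Between 10 and 12 of them were above background on the WT M1 arrays and 12 or 13 on the WT M0 arrays, none being absent from all 8. The median difference of the list by set ran from -5.96 in the set without Uty signal to -1.05. The calprotectin chains S100a8 (-1.99) and S100a9 (-2.83) fell, calls that were lost without the set that lacks Uty signal (-1.77 and -1.56). Myeloperoxidase, Mpo, fell by 4.10 and was not called without WT M0 replicate 2 (-2.93), and Ly6g rose by 5.18. Retnlg, among the largest falls, belongs to this list. T cell markers had summed levels of 3.02 to 3.95 on the WT M1 arrays, against 9.06 to 17.3 on the WT M0 arrays, with Cd3g, Cd8a and Themis below background on all 8. Most of that WT M0 sum was the single gene Cd28 (log2 difference -5.42). Of 8 tested T cell markers 3 rose and 3 fell (median 0.11), so the sum does not describe the list. B cell markers summed to 0.411 to 1.28 on the WT M1 arrays, against 1.03 to 3.01 on the WT M0 arrays. The part of these cells in the falls described above was not tested.

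The same stimulus was given to macrophages labelled KO, and the difference between the 2 responses was tested gene by gene in the same fit. Slc2a1 itself did not separate the genotypes on its single probe: its levels were 5.52, 5.54, 5.26 and 5.41 in the arrays labelled KO M1 and 2.52, 1.35, 1.98 and 1.91 in those labelled KO M0, with a KO response of 3.49 ± 0.34 against 2.91 ± 0.34 in WT. No source used here tells whether this probe lies in the deleted part of the gene, so it does not check the genotype labels. The KO arrays differed more in signal between the states: the 75th percentile was 2253 to 2491 intensity units on the KO M1 arrays and 2644 to 4362 on the KO M0 arrays, and 54 to 58.7% and 63.8 to 71.3% of probes were well above background. The part of this in the KO minus WT values was not tested. The KO response had 14452 genes called (56.4%), and 8139 genes were called in the same direction in both, which is 56.3% of the KO calls and 66.1% of the WT calls. The median difference over all genes was 0.22 in the KO response and 0.01 in the WT response. The test of KO response minus WT response called 7814 genes (30.5%), 3924 higher (15.3%) and 3890 lower (15.2%).

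Fewer of the largest WT rises than of the largest WT falls were called different between the genotypes. Over all genes 30.5% were called, 15.3% with values above 0. Of the 15 largest WT rises, Gbp2b alone differed in that test (-3.83 ± 1.28, limma adjusted p = 0.027), and a p that misses the threshold does not show the others to be equal. Nos2 rose by 9.41 ± 0.46 in KO and 10.14 ± 0.46 in WT (difference -0.73 ± 0.65). Cxcl9 rose by 10.89 ± 1.28 in KO and 13.51 ± 1.28 in WT (difference -2.62 ± 1.81). Gbp2b was above background on no WT M0 array and 1 KO M0 array, and with signals under the lowest detected level of an array put at that level its difference was -3.69. Of the 15 largest WT falls, 8 were called in the test of KO response minus WT response, all with values above 0, and 7 were not called. Nusap1, above background on 4 KO M1 and 3 WT M1 arrays, had a difference of 2.71 ± 0.53 (limma adjusted p = 0.000413), and Ccna2, measured on all of them, 1.5 ± 0.54 (limma adjusted p = 0.0395). The other 6, Pimreg, Cenpf, Aspm, Ska1, Kif4 and Knl1, were above background on no WT M1 array, so the size of their difference is not measured: with signals put at the lowest detected level it was 2.27 for Pimreg, which was above background on 4 KO M1 arrays, and 0.896 to 1.33 for the other 5, which were above background on 1 or 2.

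The lists with the largest share of members higher in this test were ribosomal proteins, the unfolded protein response and amino acid transport. All 38 ribosomal protein genes were called higher in KO response minus WT response, 100% beside the 15.3% background: their median difference was 0.55 in KO and -0.84 in WT, and Rplp0 had a difference of 0.57 ± 0.11 in KO against -0.53 ± 0.11 in WT. Unfolded protein response genes were called higher in 17 of 20 cases and lower in 0, with medians of 1.45 in KO and 0.14 in WT. Hspa5, the endoplasmic reticulum chaperone BiP, rose by 1.85 ± 0.14 in KO and 0.47 ± 0.13 in WT (limma adjusted p of the difference = 1.13e-05). Amino acid transport and ATF4 genes were higher in 12 of 23 cases and lower in 3, with medians of 1.42 in KO and 0.18 in WT. Mitosis and spindle genes were higher in 13 of 32 cases and lower in 0, and lysosomal genes were higher in 13 of 32 and lower in 3. The mitosis and spindle medians were -4.59 in KO and -5.41 in WT. Of the 13 mitosis and spindle genes, 9 were above background on all WT M1 arrays and 2 on none. Downwards, the lists with the largest shares were Toll-like receptors (5 of 9), fatty acid oxidation (12 of 28), inflammasome and cell death genes (9 of 24) and chemoattractant receptors (7 of 19), beside the 15.2% background.

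Arg1 rose by 1.70 ± 0.38 in KO and 5.2 ± 0.38 in WT (difference -3.5 ± 0.53, adjusted p = 2.98e-05). Pla2g3 (-4.24 ± 0.88), Tlr12 (-3.87 ± 1.11) and Dnaaf4 (-3.62 ± 0.55) were, with Gbp2b, the other largest differences downwards by the naming rule. The largest upwards were Lpar3 (7.61 ± 0.55), Rtn4r (7.38 ± 0.77), Rasd2 (6.66 ± 0.55), Efcc1 (6.47 ± 0.55) and Drd1 (6.3 ± 0.78). In WT, Rtn4r rose by 2.07 and the other 4 were not called. Lpar3 was above background on 0 of the 8 WT arrays, Drd1 on 1, Efcc1 on 2 and Rtn4r on 4, so the WT side of these differences lies near background. Pla2g3 and Dnaaf4 were above background on no KO M1 array, so for them it is the KO side that does.

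**Figure D5:**
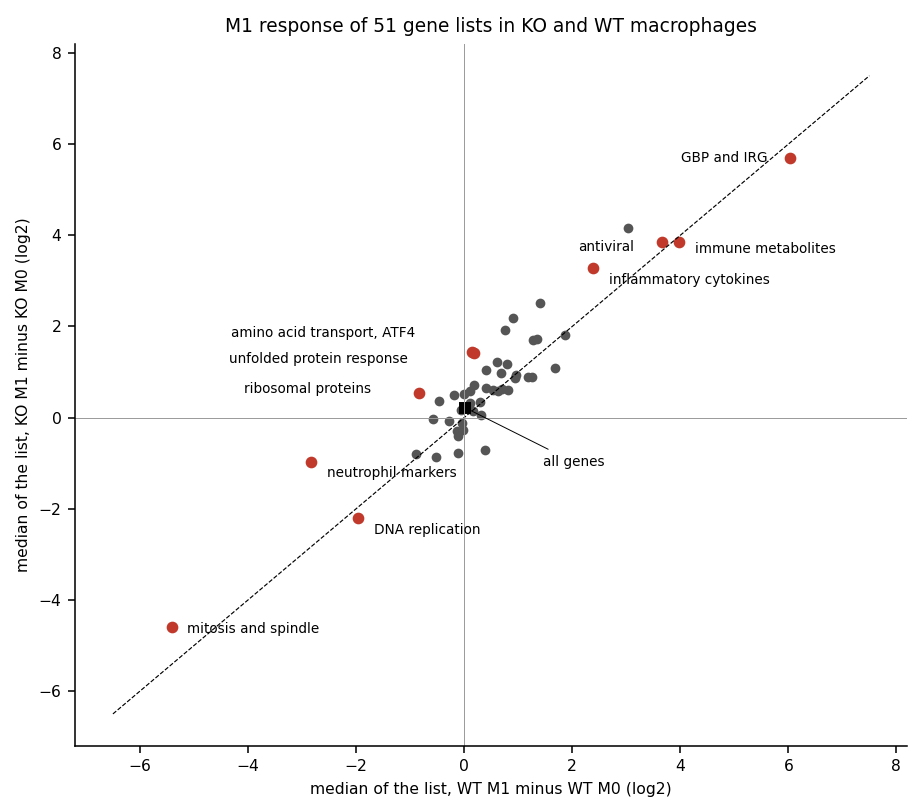
Median difference of each of the 51 gene lists in the M1 response of KO macrophages (vertical axis, KO M1 minus KO M0, log2) against WT macrophages (horizontal axis, WT M1 minus WT M0, log2), with the dashed line marking equal values and the black square all genes. The ribosomal protein list lies above 0 in KO (0.55) and below 0 in WT (-0.84), and the unfolded protein response list lies at 1.45 in KO and 0.14 in WT.

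WT M1 was also set against WT M2, the interleukin-4 cultures, in a contrast that shares the WT M1 arrays with the response described above and does not use the M0 arrays. It called 12307 genes (48.0%), 6879 higher in WT M1 (26.8%) and 5428 lower (21.2%). All 17 GBP and IRG genes and 29 of 30 antiviral genes were higher in WT M1, with medians of 7.03 and 4.91, and 31 of 32 mitosis genes were lower (median -5.31). By the naming rule the largest differences upwards were Clic5 (10.03 ± 0.52), Gbp6 (9.87 ± 1.23), Ifit1bl1 (9.27 ± 0.84), Cd69 (9.13 ± 0.42) and Ifi44 (9.13 ± 1.29).

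Downwards they were Retnla (-14.74 ± 1.41), a resistin-like gene of interleukin-4 activation, Chil4 (-9.54 ± 0.77), a chitinase-like gene, Pimreg (-10.02 ± 0.40), Cenpf (-9.51 ± 0.39) and Pbk (-9.36 ± 0.47), with 2 WT M1 arrays above background for Chil4 and 0 for the other 4, so these sizes depend on values near background. Of 22 interleukin-4 induced genes 16 were lower in WT M1 than in WT M2 and 4 were higher (median -5.0). Arg1 was lower in WT M1 than in WT M2 (difference -1.3 ± 0.38, limma adjusted p = 0.00693), and rose above WT M0 in both. Ribosomal protein genes were lower in WT M1 than in WT M2 in 35 of 38 cases, and Slc2a1 was higher in WT M1 by 2.31 ± 0.34 (adjusted p = 7.58e-06).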

How the data were processed

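Gene expression was measured on 24 Agilent one-colour arrays of 62976 spots, 4 for each of 2 genotypes in 3 states. The deposited scanner files hold a processed intensity for each spot, which per the file headers was made with Feature Extraction 10.7.3.1, while the submitters' processing notes name version 9.1. Control spots (3671) and spots with an outlier mark were removed, repeated spots of 1 probe were combined as a mean, and log2 intensities, computed here from the deposited processed signal, were centred on the 75th percentile of each array. Probes well above background on at least 4 of 24 arrays were kept (38857 of 56605). Probes were named through RefSeq accessions (32994) or symbols (10744), and 12867 keep the name in the file. The brightest probe stood for a gene. All 24 arrays were fitted together with 1 mean per group in limma 3.58.1 (R 4.3.3), and p-values were adjusted over all 25645 genes.

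Where no array of the dimmer group was well above background, a fold is a lower bound: the mean of the brighter group over the mean, for the dimmer group, of the higher of the lowest detected signal on each array and the probe's own signal.

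Slides are the chips on which arrays share glass. Arrays without Uty signal form 1 set whatever their slide, and the other sets are the remaining arrays by slide. The highest correlation between any 2 of the 8 arrays was 0.9915 over genes, so none was a copy. The members and the gene lists were chosen with earlier results of these data known. The text names Slc2a1 and Lyz2, the 15 largest called changes each way whose groups did not overlap and whose higher group was above background on every array, leaving out predicted loci, the largest called changes and some first members of each list, and the 5 largest differences each way in the other contrasts. A few members counted in the lists are not reported here by name. In data simulated from these arrays (24356 genes, 50 changed at each size), the fit recovered 6% of log2 differences of 0.5, 46% of 1, 76% of 2 and 96% of 4, and 10 of its 122 calls were false. Few genes were changed there, whereas 48.0% were called in the real comparison. The adjusted threshold is stricter when few genes change, so these shares are not the recovery in the real comparison. Alternatives were another background correction, 2 other scalings, 2 other filters, the mean over probes, blocks by replicate number, slide or set, array weights, the 8 arrays alone, and leaving out the set without Uty signal or each array in turn.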

Additional observations from a re-analysis of the deposited data

Results flagged for a closer look

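For each named gene the array at either end of its group was set against the others, by its gap to the nearest array as a share of the group's range. In 63 of 575 groups (11%) an array lay apart, where chance gives about 1 in 20, and 54 of these were the 2 arrays without Uty signal. The share of the range is given in parentheses. WT M1 replicate 3 was lowest of its group for Ccl3 (0.944), Ccl7 (0.856), Ch25h (0.955), Cxcl1 (0.864), Cxcl2 (0.897), H2-Ab1 (0.835), Hilpda (0.924), Il10 (0.926), Il1a (0.845), Il1b (0.877), Irgm2 (0.914), Klf4 (0.894), Nfkb1 (0.899), Nfkbib (0.935), Nfkbie (0.857), Slc7a11 (0.846), Tapbpl (0.831), Tgm2 (0.99), Tlr5 (0.889) and Tnfsf10 (0.934). WT M1 replicate 3 was highest of its group for Cyp27a1 (0.917), Idh2 (0.844), Ldhb (0.908), Pla2g3 (0.95), Prps2 (0.849) and Siglec1 (0.831). WT M1 replicate 1 was highest of its group for Socs1 (0.923). WT M0 replicate 2 was lowest of its group for Aurka (0.908), Ccl2 (0.836), Ccna2 (0.88), Ccnb2 (0.886), Cdc20 (0.835), Cenpf (0.879), Ch25h (0.862), Cx3cr1 (0.85), Kif4 (0.881), Klf4 (0.87), Knl1 (0.835), Mki67 (0.847), Phgdh (0.865), Pimreg (0.894), Plk1 (0.885), Rpl10a (0.839), Sigirr (0.888) and Tpx2 (0.86). WT M0 replicate 2 was highest of its group for Atp6v0d2 (0.892), Ccl8 (0.887), Cybb (0.879), Gbp2 (0.919), Gbp6 (0.867), Hif1a (0.846), Ifit1bl1 (0.856), Il1a (0.847), Ldhb (0.851) and Rsad2 (0.838). WT M0 replicate 1 was lowest of its group for Mrc1 (0.88) and Stat5b (0.864). WT M0 replicate 1 was highest of its group for Fasn (0.83), Fdps (0.848), Slc16a3 (0.883) and Slc6a19 (0.892). WT M0 replicate 4 was lowest of its group for Tbk1 (0.86). WT M0 replicate 4 was highest of its group for Cd28 (0.898). Between them these genes include cytokines and chemokines on the low side of WT M1 replicate 3 and cell division genes on the low side of WT M0 replicate 2, and the cause was not tested.

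The M1 response of KO macrophages differed from that of WT macrophages in 7814 genes by the limma interaction test. Of the 41 named genes looked at, 18 differed, a count raised by how the genes were chosen. Those with the largest differences each way were among the 41 because this same test had called them. The count is therefore not set against the 30.5% of all genes that the test called. Of the 15 largest WT falls 8 differed, with a KO response minus WT response (log2) above 0: Pimreg (3.21), Nusap1 (2.71), Cenpf (2.66), Ska1 (2.38), Kif4 (2.15), Aspm (1.94), Knl1 (1.78) and Ccna2 (1.5). Pbk, Slco2b1, E2f7, Retnlg, Neil3, Gpr34 and Kif14 were not called. Ccna2 was measured on 4 WT M1 arrays and Nusap1 on 3, whereas the other 6 were measured on none and their values have no settled size. The genes with the largest differences upwards were Lpar3 (7.61), Rtn4r (7.38), Rasd2 (6.66), Efcc1 (6.47) and Drd1 (6.3). Differences downwards were found for Gbp2b (-3.83), Arg1 (-3.50), Pla2g3 (-4.24), Tlr12 (-3.87) and Dnaaf4 (-3.62). Arg1, the arginase that competes with nitric oxide synthesis, and Gbp2b rose in both responses, and less in KO, but Gbp2b was above background on no WT M0 array. Lpar3 was above background on no WT array, Drd1 on no WT M1 array, and Pla2g3 and Dnaaf4 on no KO M1 array, so their values have no settled size either. Whether these differences follow from the deletion was not tested, because the single Slc2a1 probe does not check the genotype labels.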

How the results depend on the processing

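All 6 counts of calls stayed within 1.5 times their value under 12 alternatives and on leaving out each of the 8 arrays. Over the alternatives the WT M1 minus WT M0 calls ran from 11595 to 15297 (main 12315), the rises from 5042 to 7785, the falls from 5456 to 7512, the calls of at least 2-fold from 4814 to 6964, the KO minus WT response calls from 7042 to 10866 and the WT M1 minus WT M2 calls from 11239 to 14151. Leaving out 1 array gave 11217 to 12175, 5770 to 6331, 5356 to 5844, 5896 to 6599, 7275 to 7715 and 11247 to 12388. Replicate numbers did not pair the cultures throughout: the deviations of same-numbered WT M1 and WT M0 arrays correlated at 0.18, -0.35, -0.35 and 0.21, and those of the same set at 0.18, 0.47, 0.49 and 0.21. The arrays numbered 1 and those numbered 4 also share a set, so 0.18 and 0.21 are the same pairs in both series. With the replicate block 12740 genes were called, 6273 by at least 2-fold, 8361 for the KO minus WT response and 12719 for WT M1 minus WT M2. With the set as a block 14247 genes were called. Of 5809 combinations of a named gene and an alternative, 5744 kept their direction and side of the threshold, 43 lost the call, 21 gained it and 1 reversed: Pfkfb2 was 0.0568 with the mean over its probes, against -0.64 on its brightest probe, since its other probes ranged from -0.59 to 1.4. Of 1020 combinations of a list median and an alternative, 25 had the other sign. The median of all genes moved to -0.14 on scaling to probes detected on all 24 arrays and to 0.13 without the filter on dim probes, so list medians near 0 have no settled sign. Precision is limited by 4 arrays a group, and differences of genes near background rest on signals that carry little information.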

Other observations

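Nr1h3, encoding the oxysterol receptor LXR-alpha, had levels of 5.07, 5.17, 4.97 and 5.18 in the WT M1 arrays, against 2.72, 3.01, 2.46 and 2.32 in the WT M0 arrays (log2 difference 2.47 ± 0.22, limma adjusted p = 1.35e-08). Its groups did not overlap. In the list of LXR targets and fatty acid synthesis 6 of 24 genes rose (25%) and 7 fell (29.2%), near the background of 25.0% and 23.0%. The fatty acid enzymes Elovl6 (-2.33) and Fads1 (-1.83) were among the falls. Of 12 osteoclast and fusion genes 2 rose and 4 fell. Car2, the carbonic anhydrase of osteoclasts, had levels of -0.07, 0.50, -1.99 and -0.10 in the WT M1 arrays, against -4.37, -4.82, -4.68 and -4.93 in the WT M0 arrays (log2 difference 4.28 ± 0.61, limma adjusted p = 1.1e-05), and the gelatinase Mmp9 fell by 1.18. Among Fc receptors and sialic acid binding lectins 7 of 14 rose and 3 fell. Siglec1 and Fcgr4 rose by 2.76 and 2.73. The neonatal Fc receptor Fcgrt, which recycles immunoglobulin G, had levels of 0.88, 0.59, 1.76 and 0.57 in the WT M1 arrays, against 2.94, 4.87, 3.76 and 3.74 in the WT M0 arrays (log2 difference -2.88 ± 0.45, limma adjusted p = 1.95e-05).

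Markers of other lineages were mixed. Of 5 tested natural killer cell markers 1 rose and 4 did not pass the test, of 8 T cell markers 3 rose and 3 fell, and of 10 dendritic cell markers 3 rose and 1 fell. Klrk1, the receptor NKG2D of natural killer cells, had levels of -0.13, -0.03, 1.14 and -0.39 in the WT M1 arrays, against -7.01, -5.47, -7.24 and -5.93 in the WT M0 arrays (log2 difference 6.56 ± 0.43, limma adjusted p = 1.81e-10), with 2 WT M0 arrays above background, whereas Ncr1, Klrd1 and Gzmb were below background on all 8 arrays. The summed level of the 9 natural killer cell markers was 0.995 to 2.44 on the WT M1 arrays, against 0.224 to 0.263 on the WT M0 arrays. Klrk1 alone made up most of the sum on the WT M1 arrays. The dendritic cell gene Clec9a rose at least 16.2-fold with no WT M0 array above background, and Xcr1 was below background on all 8. The T cell kinase Lck rose by 2.28, while Cd28, the co-stimulatory receptor that binds Cd80 and Cd86, had levels of -2.58, -2.25, -2.31 and -2.35 in the WT M1 arrays, against 2.68, 2.80, 2.80 and 3.91 in the WT M0 arrays (log2 difference -5.42 ± 0.29, limma adjusted p = 1.33e-11). Cd2 fell at least 5.02-fold with no WT M1 array above background. Summed dendritic cell markers were 37 to 56.7 on the WT M1 arrays, against 44 to 57.3 on the WT M0 arrays. Summed stromal markers were 1.02 to 1.45 on the WT M1 arrays, against 1.35 to 2.08 on the WT M0 arrays, and summed erythroid and mast cell markers 0.31 to 0.452, against 0.457 to 2.47.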
